A study of Homo sapiens with 56 samples.

Results

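The genes described here are 10 human genes of the NF-kB system, namely NFKB1, NFKB2, RELA, RELB, NFKBIA, NFKBIE, TNFAIP3, BIRC3, ICAM1 and TNF. They were chosen as a list by name, with earlier results of these data known. Each was found among the 59081 gene symbols that the deposited count tables of both cell lines share. All 10 passed the filter on low counts in Mv4;11, where 20495 genes were tested, and in KG-1, where 18618 were tested. Mv4;11 and KG-1 are established human acute myeloid leukaemia lines. Each was grown in culture and given PMR-116 at 1 µM for 3 h or 12 h, CX-5461 at 1 µM for 3 h or 12 h, or a vehicle of citric acid and NaH2PO4 for the same times, and polyadenylated RNA was then sequenced. PMR-116 and CX-5461 are inhibitors of RNA polymerase I, which transcribes the large ribosomal RNA precursor. In Mv4;11 there were 3 libraries for each of 8 groups, which were PMR-116, its own vehicle, CX-5461 and its own vehicle at each time. KG-1 had the same 8 groups with 4 libraries each. No vehicle library served both compounds, so effects of different compounds shared no library.

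NF-kB is a family of dimeric transcription factors built from RELA, RELB, REL and the processed forms of NFKB1 and NFKB2. Inhibitors of the IkB family, among them NFKBIA and NFKBIE, hold the dimers in the cytoplasm until an IkB kinase marks the inhibitors for destruction. The released dimers switch on inflammatory and survival genes, and among their targets are their own inhibitors and the ubiquitin-editing enzyme TNFAIP3 (A20), so the response limits itself. In myeloid leukaemia cells the pathway is known for constitutive activity that varies between cell lines.

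NF-kB dimers bind a decameric DNA motif, and the stretches that hold it near the start sites of 5 of the 10 genes are shown, as a sequence feature that the choice of the genes did not use. The motif searched was GGG, NN, TT, N and CC in an unbroken row (N is any base), on both strands, in RefSeq promoter windows of GRCh38.p14 that run from 250 bases before to 50 bases after a start. Windows were found for 8 of the 10 genes, 12 windows in all, and 6 windows of 5 genes held a match. Over all genes, 1994 of 35116 windows (5.68%) held one. The capitals mark each match, read on the gene's own strand, with 14 bases on either side.
TNFAIP3: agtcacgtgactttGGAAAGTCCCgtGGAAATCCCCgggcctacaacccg
NFKBIA: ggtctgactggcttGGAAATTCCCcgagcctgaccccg
NFKB1: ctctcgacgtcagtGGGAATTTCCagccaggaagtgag
NFKB2: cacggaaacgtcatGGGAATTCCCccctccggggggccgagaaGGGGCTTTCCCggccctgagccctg
BIRC3: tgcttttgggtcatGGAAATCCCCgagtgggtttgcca

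The TNFAIP3 stretch is chr6:137867178-137867227 on the plus strand, with a pair of matches between 67 and 46 bases before the start. That of NFKBIA is chr14:35404807-35404844 on the minus strand, with its match 81 to 72 bases before the start. Those of NFKB1, NFKB2 and BIRC3 are chr4:102501296-102501333, chr10:102394457-102394524 and chr11:102317271-102317308, all on the plus strand. In the NFKB2 stretch shown 2 of the 3 matches overlap, in the run of capitals nearer the start, and another NFKB2 window holds 2 further matches that are not shown. The windows of RELA, ICAM1 and TNF do not hold these letters. This says nothing of binding at other letters in those windows or elsewhere in those genes. RELB and NFKBIE were not searched here.

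Library totals ran from 28751758 to 41542156 counts in Mv4;11 and from 31010072 to 72707757 in KG-1. The lines were counted in separate tables and carry different batch labels, so a difference in level between them cannot be told apart from batch. Labels number the replicates but do not say that they came from separate cultures, and p-values then measure only the spread between these libraries. No pair of replicates agreed within sampling noise. PMR-116 vehicle libraries set against CX-5461 vehicle libraries gave 0 called genes in edgeR at either time in both lines, with 479 to 858 genes at an unadjusted p under 0.05, none of them a member, and 0 to 2 genes called in DESeq2. In Mv4;11, replicate 3 of the PMR-116 vehicle at 12 h stood apart, with 438 CPM (counts scaled to a common library size) of the noncoding RNA RN7SL2; the 5 vehicle libraries beside it at 12 h held 9.18 to 15.8 CPM. Leukocyte and myeloid markers were present in every library, among them CD33 at 69.2 to 125 CPM in Mv4;11 and 74.0 to 104 CPM in KG-1, and CD34 stood at 1795 to 2487 CPM in KG-1. CD34 was at 0 to 1.19 CPM in Mv4;11, and the monocytic gene LYZ at 4.92 to 8.62 CPM in KG-1, against 667 to 1484 CPM in Mv4;11. ITGAM, also a monocyte marker, went the other way, with 61.5 to 110 CPM in KG-1 and 1.79 to 17.6 CPM in Mv4;11. KG-1 also held the megakaryocyte marker ITGA2B at 510 to 712 CPM and the lymphocyte marker CD3D at 58.5 to 74.8 CPM. In these bulk samples, fewer cells of a type and less RNA per cell cannot be told apart.

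Across the 8 comparisons of a compound with its own vehicle, the 10 genes changed little. Of 80 tests of a member, 9 passed (2 higher, 7 lower), 8 of them in Mv4;11, and none was a change of 2-fold or more. The genes that passed at least once were 4, namely TNFAIP3, RELA, RELB and TNF. A gene is called here at an adjusted p under 0.05 in edgeR's quasi-likelihood test, adjusted over all genes tested, and changes are log2 fold changes of compound over vehicle with their standard error after ±.

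In Mv4;11, 3 h of PMR-116 lowered RELA and TNFAIP3, 2 of 10 members, where 24.1% of all tested genes were called. CX-5461 for 3 h raised RELB, 1 of 10, against 11.7% of all genes. At 12 h PMR-116 lowered RELA and TNFAIP3 again, 2 of 10 against 43.2%, and CX-5461 raised RELB and lowered TNFAIP3 and TNF, 3 of 10 against 31.4%. In each of these comparisons the share of members called was near or below that of all genes. The median change of the 10 genes was 0.01, 0.01, -0.08 and 0.03 in that order, and that of all genes was 0.01 and 0.04 at 12 h. Groups that did not overlap were found for 4, 3, 3 and 3 of the 10 genes in the same order, against 35.9%, 28.1%, 50.7% and 46% of all genes. In KG-1, TNFAIP3 alone passed, at 3 h of PMR-116, 1 of 10 where 7.33% of all genes were called. No member passed at 3 h of CX-5461 (3.44% of all genes), 12 h of PMR-116 (9.46%) or 12 h of CX-5461 (2.54%) in edgeR, where 2, 1 and 4 members had an unadjusted p under 0.05 and DESeq2 called 1 (NFKBIA), 1 (ICAM1) and 2 (NFKB2 and RELB). With the replicate number as a block in edgeR (the replicate block), those comparisons gave 1 (RELB), 1 (ICAM1) and 3 members (NFKB2, RELB and ICAM1). Of all 18618 genes the block called 1733, 3198 and 1313. At 3 h of PMR-116 it called 3 members, with RELB and BIRC3 gained, and 2599 genes. At 12 h of CX-5461 in KG-1, 9 of the 10 changes were positive, with a median of 0.27 against 0.00 for all genes. Groups did not overlap in KG-1 for 1 member at 3 h of PMR-116, 0 at 3 h of CX-5461, 0 at 12 h of PMR-116 and 2 at 12 h of CX-5461, against 13.3%, 10.5%, 13% and 7.56% of all genes.

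**Figure D1:**
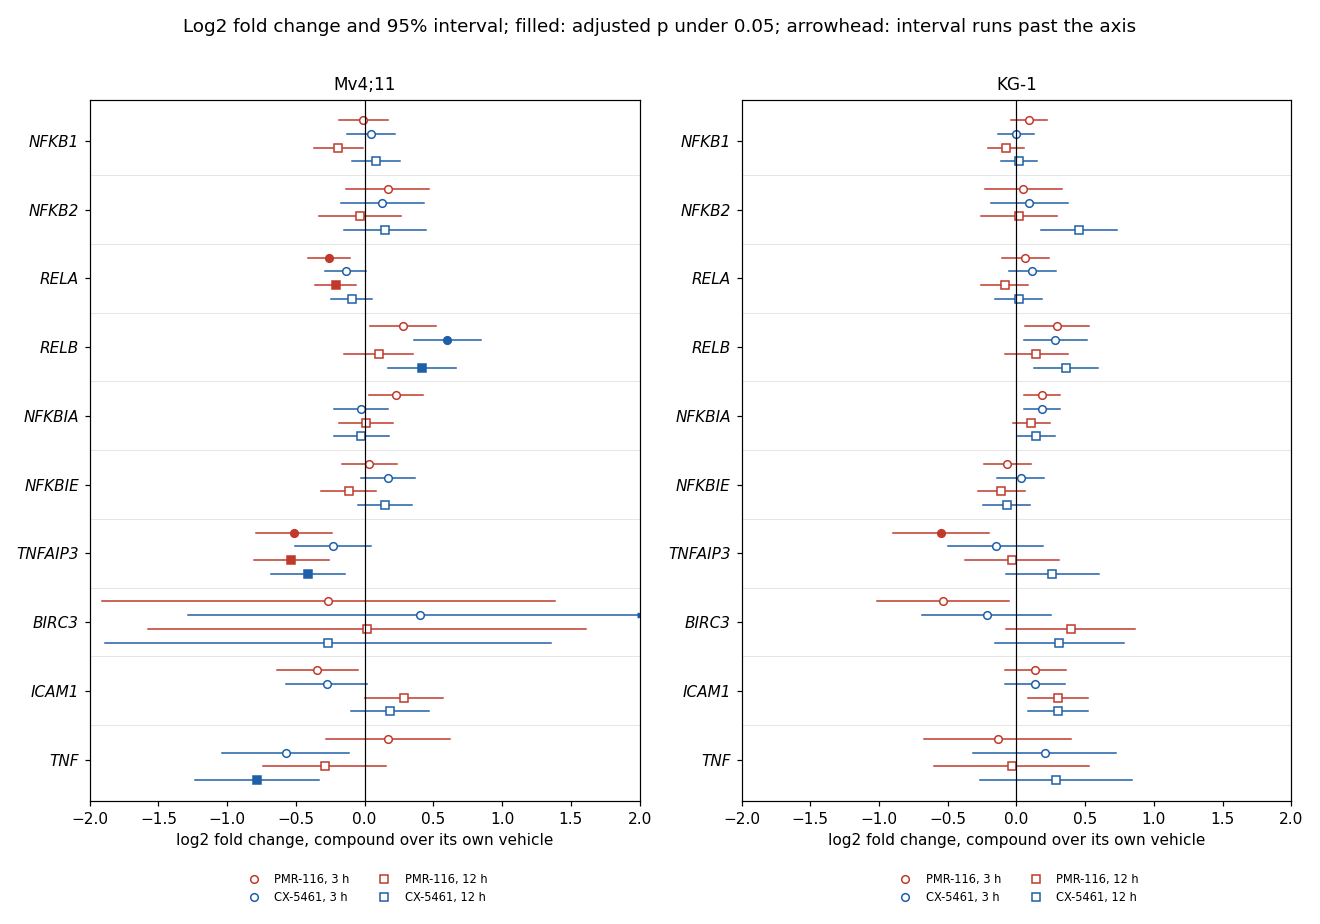
Log2 fold change (x axis) of each gene (rows) for the 4 comparisons of a compound with its own vehicle in Mv4;11 (left) and KG-1 (right). Lines are 95% intervals and filled symbols are calls at an adjusted p under 0.05. The 9 filled symbols lie on TNFAIP3, RELA, RELB and TNF, and the widest intervals are those of BIRC3 in Mv4;11.

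The DNA-binding subunits are described first. RELA encodes p65, the main transactivating subunit of the canonical pathway. It stood at 88.7, 72.8 and 78.4 CPM after 3 h of PMR-116 in Mv4;11, against 97.1, 97.2 and 92.7 CPM with vehicle, so that every treated library lay below every vehicle library (-0.26 ± 0.07, adjusted p = 0.0106). The call ended without treated replicate 2 (-0.20, adjusted p = 0.0802). After 12 h of PMR-116 it stood at 72.4, 65.5 and 79.9 CPM, against 82.6, 86.2 and 83.7 CPM with vehicle (-0.21 ± 0.07, adjusted p = 0.0212). The groups did not overlap there, but the call ended without treated replicate 1 or 2 or vehicle replicate 2 (adjusted p between 0.0529 and 0.0842), with no filter on low counts (-0.13, adjusted p = 0.300) and with library totals in place of TMM (the trimmed mean scaling of edgeR) (-0.04, adjusted p = 0.670). At that comparison the change of scaling moved the median of all genes to 0.18, so RELA still lay below the median gene. After CX-5461 in Mv4;11, RELA was at -0.14 ± 0.07 after 3 h and -0.10 ± 0.07 after 12 h (adjusted p = 0.253 and 0.357), with no overlap at 3 h. In KG-1 its changes lay between -0.09 and 0.12, and none passed. The groups in KG-1 overlapped in all 4 comparisons, with 65.9 to 109 CPM over all 32 libraries.

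RELB is a subunit of the non-canonical pathway, and its own gene is an NF-kB target. Its change was positive in all 8 comparisons, and the sign held under each of the alternatives run. No other member had 8 positive changes with TMM or with DESeq2, but NFKB2 did with library totals. After 3 h of CX-5461 in Mv4;11 it stood at 12.8, 14.9 and 13.1 CPM, against 10.5, 8.63 and 7.79 CPM with vehicle, with no overlap (0.60 ± 0.12, adjusted p = 0.00108). That call held under all 11 alternatives. After 12 h of CX-5461 it stood at 10.3, 10.2 and 8.61 CPM, against 7.43, 7.01 and 7.29 CPM with vehicle, again with no overlap (0.42 ± 0.12, adjusted p = 0.00894). The call at 12 h ended without treated replicate 1 (0.35, adjusted p = 0.0601) or 2 (0.36, adjusted p = 0.0535). PMR-116 gave 12.6, 12.7 and 11.8 CPM after 3 h, against 10.8, 10.5 and 9.24 CPM with vehicle (0.28 ± 0.12, adjusted p = 0.0890; with library totals 0.32, adjusted p = 0.0458), and a change of 0.10 ± 0.12 after 12 h (adjusted p = 0.535). Every PMR-116 library lay above its vehicle libraries at 3 h, although the test was not passed.

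RELB in KG-1 stood at 18.5, 20.8, 21.2 and 19.8 CPM after 12 h of CX-5461, against 14.95, 15.2, 15.5 and 16.9 CPM with vehicle (0.36 ± 0.11, adjusted p = 0.0910). The groups did not overlap there, and the test was not passed in the main edgeR fit. RELB passed with DESeq2 (0.36, adjusted p = 0.0356) and with the replicate block in edgeR (0.36, adjusted p = 0.00249). Its other changes in KG-1 were 0.30 ± 0.11 and 0.28 ± 0.11 after 3 h of PMR-116 and CX-5461 (adjusted p = 0.116 and 0.182). After 12 h of PMR-116 the change was 0.15 ± 0.11 (adjusted p = 0.496), and all these groups overlapped. The 3 h changes passed with the replicate block in edgeR (adjusted p = 0.00709 and 0.0138).

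NFKB1 encodes p105, the precursor of p50, and had changes between -0.19 and 0.09 over the 8 comparisons and no call. Its value farthest from 0 was in Mv4;11 after 12 h of PMR-116, with 46.3, 37.1 and 38.9 CPM, against 47.3, 52.5 and 39.9 CPM with vehicle (-0.19 ± 0.09, adjusted p = 0.0767). Only vehicle replicate 3, the library that stood apart, lay within the range of the treated libraries. Without it NFKB1 was called (-0.31, adjusted p = 0.00473), without treated replicate 1 as well (-0.29, adjusted p = 0.0105) and with DESeq2 (-0.21, adjusted p = 0.0487), while library totals gave -0.02, adjusted p = 0.871.

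NFKB2 encodes p100, the precursor of p52 and an inhibitor in its own right. In KG-1 after 12 h of CX-5461 it stood at 88.1, 93.8, 109.8 and 108 CPM, against 72.2, 68.2, 82.8 and 68.7 CPM with vehicle. Every treated library exceeded every vehicle library, and the test missed the threshold (0.45 ± 0.14, adjusted p = 0.0721). NFKB2 passed there with DESeq2 (0.45, adjusted p = 0.0233) and with the replicate block in edgeR (0.45, adjusted p = 0.000187). PMR-116 at the same time gave 62.8, 87.2, 94.6 and 96.9 CPM, against 68.7, 77.8, 91.4 and 99.3 CPM with vehicle (0.02 ± 0.14, adjusted p = 0.963), with overlapping groups. In Mv4;11 NFKB2 lay between -0.03 and 0.17 and no change passed. At 3 h of PMR-116 its vehicle replicate 3 held 25.1 CPM, against 15.97 and 16.2 CPM in the other vehicle libraries, and without it NFKB2 was called (0.42, adjusted p = 0.0284).

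**Figure D2:**
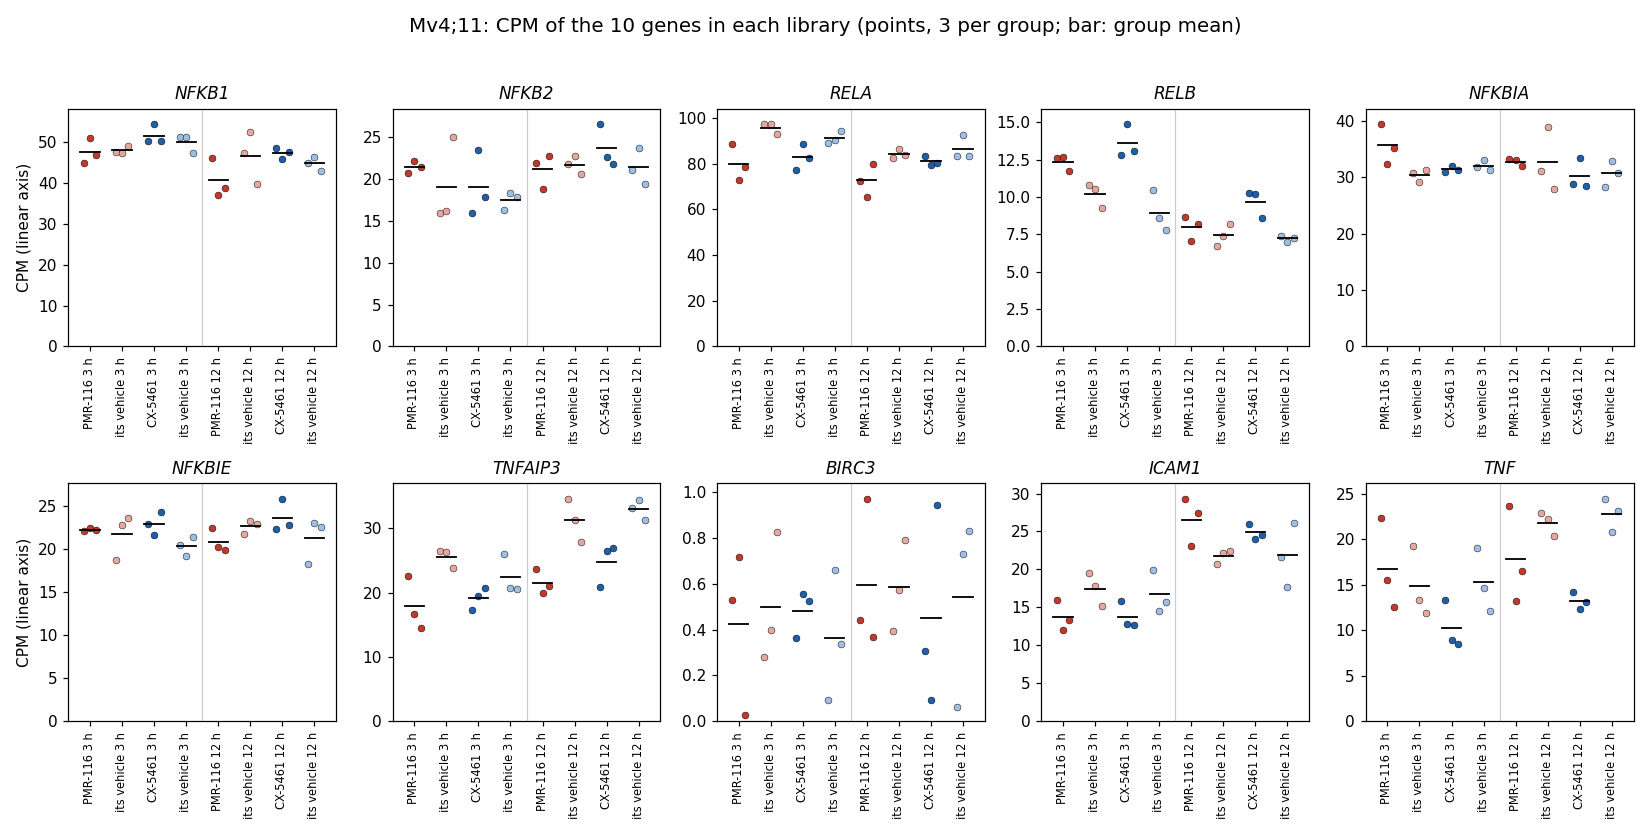
CPM (y axis, linear, from 0) of the 10 genes in Mv4;11, 1 panel per gene. Points are single libraries, 3 per group, and bars are group means, with each compound left of its own vehicle at 3 h and then at 12 h. TNFAIP3 after 12 h lies lower with PMR-116 (23.7 CPM or less) than with its vehicle (27.9 to 34.5 CPM), and BIRC3 stays under 1 CPM in all groups.

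Of the inhibitors and feedback genes, TNFAIP3 responded most often, with 4 of the 9 calls, all lower. It encodes A20, which removes activating ubiquitin chains from signalling proteins upstream of the IkB kinase and shuts the response down. After 3 h of PMR-116 in Mv4;11 it stood at 22.6, 16.6 and 14.5 CPM, against 26.4, 26.3 and 23.8 CPM with vehicle (-0.52 ± 0.13, adjusted p = 0.00582). The groups did not overlap, and the call ended without treated replicate 3, the lowest library (-0.39, adjusted p = 0.0599). After 12 h of PMR-116 it stood at 23.7, 19.99 and 20.97 CPM, against 34.5, 31.2 and 27.9 CPM with vehicle (-0.54 ± 0.13, adjusted p = 0.00181). That call held under all 11 alternatives, and the change was -0.63 (adjusted p = 0.00113) without the vehicle library that stood apart.

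CX-5461 gave the same direction for TNFAIP3 in Mv4;11. After 12 h it stood at 20.8, 26.5 and 26.9 CPM, against 33.2, 34.3 and 31.3 CPM with vehicle, with no overlap (-0.41 ± 0.13, adjusted p = 0.0175). The call ended without treated replicate 1 (-0.33, adjusted p = 0.0829) or vehicle replicate 2 (-0.39, adjusted p = 0.0585), and with library totals (-0.33, adjusted p = 0.0585). At 3 h of CX-5461 the change was -0.23 ± 0.13 with overlapping groups (adjusted p = 0.311).

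TNFAIP3 in KG-1 fell after 3 h of PMR-116 (-0.55 ± 0.17, adjusted p = 0.0451), to 10.2, 6.44, 15.3 and 12.4 CPM, against 13.4, 15.6, 20.1 and 16.1 CPM with vehicle. The groups overlapped, and treated replicate 2 was the lowest of all 32 KG-1 libraries. The call ended in 6 of the 8 fits that left out 1 library, those without vehicle replicate 2, 3 or 4 or PMR-116 replicate 1, 2 or 4 (adjusted p between 0.0541 and 0.181), and in the fit of these 2 groups alone (-0.56, adjusted p = 0.155). Without treated replicate 2 the change was -0.37. At 12 h in KG-1 TNFAIP3 was at -0.03 ± 0.17 with PMR-116 and 0.26 ± 0.17 with CX-5461 (adjusted p = 0.939 and 0.535). Exons of another annotated gene on the opposite strand overlap those of TNFAIP3 in GENCODE v29, as is the case for RELA and ICAM1, and the strand setting of the counting is not given in the sources used here, so reads of such partners cannot be told apart.

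NFKBIA encodes IkBα, the classical feedback inhibitor of the canonical dimers. With the settings used throughout none of its 8 changes passed, and they lay between -0.03 and 0.23. In KG-1 after 3 h of PMR-116 it stood at 52.8, 52.5, 58.2 and 56.998 CPM, against 44.7, 45.9, 52.2 and 51.1 CPM with vehicle, each treated library above each vehicle library (0.19 ± 0.06, adjusted p = 0.0785; with DESeq2 0.19, adjusted p = 0.0382). CX-5461 at 3 h in KG-1 gave a like value with overlapping groups (0.19 ± 0.06, adjusted p = 0.109), which passed without vehicle replicate 3 (0.24, adjusted p = 0.0479) and with DESeq2 (0.19, adjusted p = 0.0474). In Mv4;11 PMR-116 for 3 h gave 39.5, 32.4 and 35.2 CPM, against 30.7, 29.2 and 31.4 CPM with vehicle (0.23 ± 0.10, adjusted p = 0.0876), and CX-5461 gave -0.03 ± 0.10 at 3 h and -0.02 ± 0.10 at 12 h (adjusted p = 0.906 and 0.888). The PMR-116 libraries at 3 h did not overlap with their vehicle, and the change passed with library totals (0.27, adjusted p = 0.0323) and with no filter (0.26, adjusted p = 0.0435). The 95% interval at 12 h of CX-5461 in Mv4;11 ran from -0.22 to 0.17.

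NFKBIE encodes IkBε, a slower inhibitor of the same family. Its 8 changes lay between -0.12 and 0.17, and the lowest adjusted p was 0.255. The 24 Mv4;11 libraries held 18.2 to 25.8 CPM and the 32 KG-1 libraries 36.4 to 52.2 CPM. After 3 h of CX-5461 in Mv4;11 it stood at 22.9, 21.7 and 24.3 CPM, against 20.5, 19.2 and 21.4 CPM with vehicle, its 1 comparison without overlap (0.17 ± 0.10, adjusted p = 0.285).

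BIRC3 encodes cIAP2, a ubiquitin ligase of TNF receptor complexes and a strongly NF-kB-dependent gene. In Mv4;11 it was close to silent, with 1 to 35 counts per library and 0.0258 to 0.969 CPM, and its changes there had intervals that ran past 2-fold in both directions. In KG-1 it stood at 5.29 to 18.5 CPM. After 3 h of PMR-116 in KG-1 it held 5.29, 7.55, 10.3 and 11.1 CPM, against 13.1, 8.75, 14.9 and 12.96 CPM with vehicle (-0.54 ± 0.23, adjusted p = 0.185), and after 12 h 14.4, 11.2, 18.5 and 13.1 CPM, against 9.87, 8.62, 12.9 and 12.1 CPM with vehicle (0.39 ± 0.23, adjusted p = 0.329). The groups overlapped at both times and neither change passed in the main fit. The 3 h change passed with the replicate block in edgeR (-0.54, adjusted p = 0.0151).

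**Figure D3:**
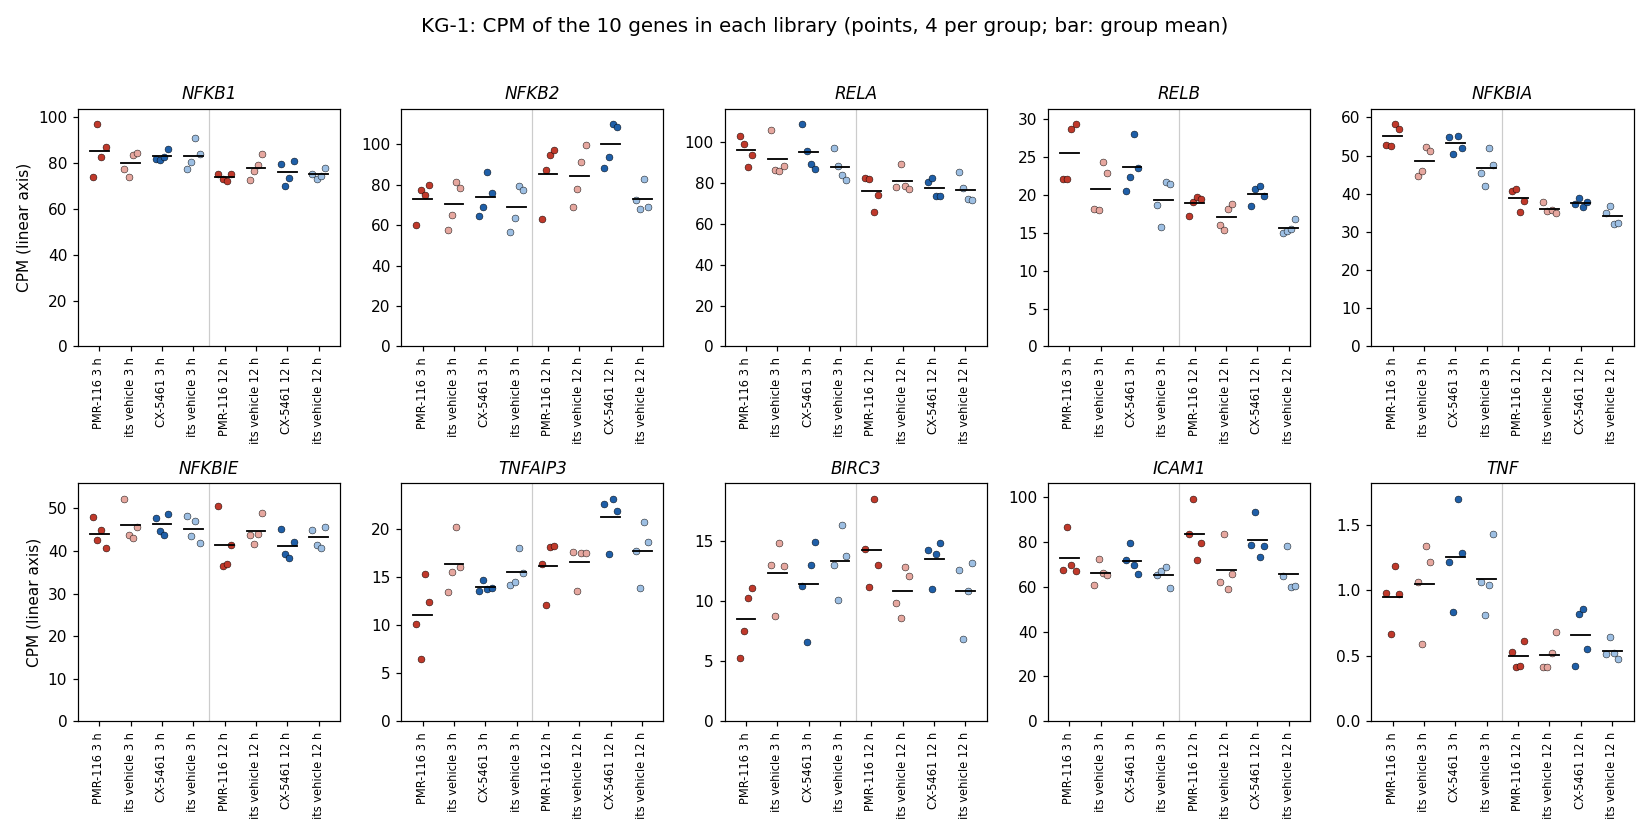
CPM (y axis, linear, from 0) of the 10 genes in KG-1, drawn as for Mv4;11 with 4 libraries per group. NFKB2 after 12 h of CX-5461 (88.1 to 109.8 CPM) lies above its vehicle (68.2 to 82.8 CPM), and TNF stays under 2 CPM in all groups.

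Of the effector genes, ICAM1 encodes an adhesion molecule that endothelial and myeloid cells display during inflammation. No change of ICAM1 passed against vehicle with the settings used throughout. In Mv4;11 it stood at 29.3, 23.04 and 27.4 CPM after 12 h of PMR-116, against 20.8, 22.2 and 22.4 CPM with vehicle, with no overlap (0.29 ± 0.14, adjusted p = 0.101). That change passed with library totals (0.46, adjusted p = 0.00994) and with no filter on low counts (0.37, adjusted p = 0.00459). After 3 h of PMR-116 the order was the opposite, with 15.9, 12.1 and 13.4 CPM, against 19.5, 17.8 and 15.2 CPM with vehicle (-0.35 ± 0.14, adjusted p = 0.0833). The 3 h value passed without treated replicate 1 (-0.46, adjusted p = 0.0367), with no filter (-0.31, adjusted p = 0.0498) and with the replicate block (-0.35, adjusted p = 0.0353). In KG-1 all 4 changes of ICAM1 were positive, between 0.14 and 0.30. After 12 h of PMR-116 it stood there at 83.3, 99.1, 71.8 and 79.3 CPM, against 61.9, 83.6, 59.1 and 65.7 CPM with vehicle (0.30 ± 0.11, adjusted p = 0.0708), and it passed without vehicle replicate 2 (0.41, adjusted p = 0.0152) or treated replicate 3 (0.37, adjusted p = 0.0415), with library totals (adjusted p = 0.0403) and with DESeq2 (adjusted p = 0.0456). Replicate 2 of the vehicle held 83.6 CPM, above 3 of the 4 treated libraries. With the replicate block in edgeR ICAM1 passed in KG-1 at 12 h of PMR-116 (0.31, adjusted p = 0.000586) and of CX-5461 (0.30, adjusted p = 0.00164).

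TNF encodes the cytokine that both activates NF-kB and is made under its control. In Mv4;11 it stood at 14.2, 12.4 and 13.1 CPM after 12 h of CX-5461, against 24.4, 20.8 and 23.1 CPM with vehicle. All treated libraries lay below all vehicle libraries, and the fall of 1.72-fold was the largest change called among the 10 genes (-0.78 ± 0.22, adjusted p = 0.00762). It passed under all 11 alternatives. After 3 h of CX-5461 the values were 13.4, 8.91 and 8.47 CPM, against 19.01, 14.6 and 12.1 CPM with vehicle (-0.57 ± 0.22, adjusted p = 0.103). Those groups overlapped, and the value passed without treated replicate 1 (-0.80, adjusted p = 0.0377) and with no filter (-0.55, adjusted p = 0.000208). It also passed with DESeq2 (-0.57, adjusted p = 0.0491) and with the replicate block in edgeR (-0.58, adjusted p = 0.00679). With PMR-116 TNF was at 0.17 ± 0.22 at 3 h and -0.29 ± 0.22 at 12 h in Mv4;11 (adjusted p = 0.637 and 0.299). KG-1 held 0.411 to 1.70 CPM of TNF, and its 4 changes lay between -0.14 and 0.29 with no call.

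Vehicle libraries of the 2 times are set side by side as values only, since no test was made between them. In Mv4;11 TNF ran from 20.3 to 24.4 CPM over the 6 vehicle libraries at 12 h, against 11.9 to 19.3 CPM over the 6 at 3 h. TNFAIP3 ran from 27.9 to 34.5 CPM at 12 h, against 20.5 to 26.4 CPM at 3 h, and RELB from 6.75 to 8.19 CPM at 12 h, against 7.79 to 10.8 CPM at 3 h. In KG-1 NFKBIA ran from 32.1 to 37.9 CPM over the 8 vehicle libraries at 12 h, against 42.02 to 52.2 CPM over the 8 at 3 h. Both sets of vehicle libraries of a time are pooled in these ranges. They do not overlap for TNF and TNFAIP3 in Mv4;11 and for NFKBIA in KG-1. TNF and TNFAIP3 overlap between times in KG-1, as does NFKBIA in Mv4;11, and every other member overlaps in both lines. The share of all genes without overlap between the times was not counted, so these cases are not read as a change particular to the members.

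The compounds were compared at the same dose and time, as the PMR-116 effect minus the CX-5461 effect, in 4 pairs. No member passed in any of the 4, where the calls made up 1.34% (3 h) and 5.11% (12 h) of all genes in Mv4;11. The shares in KG-1 were 0.0107% (3 h) and 0.0483% (12 h). At an unadjusted p under 0.05 there were 1, 1, 0 and 1 members in the same order, and DESeq2 called 0 in all 4. The largest difference was that of TNF at 3 h in Mv4;11, where the effects were 0.17 for PMR-116 and -0.57 for CX-5461 (difference 0.74 ± 0.31, 95% interval 0.10 to 1.39, adjusted p = 0.298). With no filter on low counts TNF passed at 3 h (0.76, adjusted p = 0.00125) and at 12 h (0.52, adjusted p = 0.0455) in Mv4;11. For TNFAIP3 at 12 h in Mv4;11 the effects were -0.54 for PMR-116 and -0.41 for CX-5461, with an interval of the difference of -0.51 to 0.26. RELB, called with CX-5461 and not with PMR-116 in Mv4;11, did not pass the test between compounds (-0.32 ± 0.17, adjusted p = 0.426 at 3 h and -0.32 ± 0.17, adjusted p = 0.343 at 12 h), with a 95% interval of -0.66 to 0.02 at 3 h. NFKB2 at 12 h in KG-1 had a difference of -0.44 ± 0.19 (95% interval -0.83 to -0.04, adjusted p = 0.621). It passed with the replicate block in edgeR (-0.43, adjusted p = 0.0353), where 179 genes were called. The intervals that reached past 2-fold were those of TNF in all 4 pairs and of BIRC3 in Mv4;11, and a p above the threshold does not show that the compounds act alike.

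Between times, 1 member passed. The effect of PMR-116 on ICAM1 in Mv4;11 was higher at 12 h than at 3 h, 0.29 against -0.35 (difference 0.63 ± 0.20, adjusted p = 0.0194). This was 1 of 10 members where 27.6% of all genes were called. The call ended without replicate 1 of the vehicle or replicate 2 of PMR-116 at 3 h, or without replicate 1 or 3 of PMR-116 at 12 h (adjusted p between 0.0505 and 0.0621), and the difference was 0.63 (adjusted p = 0.0342) without the vehicle library that stood apart. Without that library NFKB1 also passed (-0.30, adjusted p = 0.0490), as did NFKB2 without replicate 3 of the 3 h vehicle (-0.49, adjusted p = 0.0466). For CX-5461 in Mv4;11 ICAM1 gave a difference of 0.46 ± 0.20 (adjusted p = 0.122; with no filter 0.49, adjusted p = 0.0244), and no member passed in edgeR where 16.7% of all genes did (1 member at an unadjusted p under 0.05). In KG-1 no member passed for PMR-116 (1.69% of all genes) or CX-5461 (0.263%) in edgeR, with 2 and 0 members at an unadjusted p under 0.05. DESeq2 called 0 members in these 3 comparisons of times. The largest difference in KG-1 was BIRC3 with PMR-116, whose effect was 0.39 at 12 h and -0.54 at 3 h (difference 0.93 ± 0.33, adjusted p = 0.161). It passed with the replicate block in edgeR (0.94, adjusted p = 0.00637).

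Between lines, effects were compared in a joint fit of 23759 genes, as Mv4;11 minus KG-1. The effects set beside a difference come from the fit of each line alone, so the difference can depart a little from theirs. At 12 h of CX-5461, TNFAIP3 and TNF passed, 2 of 10 members where 16.2% of all genes were called. TNFAIP3 was at -0.41 in Mv4;11 and 0.26 in KG-1 (difference -0.64 ± 0.23, adjusted p = 0.0482). TNF was at -0.78 in Mv4;11 and 0.29 in KG-1 (difference -1.03 ± 0.36, adjusted p = 0.0393), where KG-1 libraries held under 1 CPM of TNF at that time. Both calls ended with library totals (-0.58, adjusted p = 0.0981, and -0.97, adjusted p = 0.0585). Leaving out 1 library ended the call of TNFAIP3 in 8 of 14 fits (without treated replicate 1 or 2 or any vehicle replicate of Mv4;11, or without treated replicate 1 or 4 or vehicle replicate 2 of KG-1) and that of TNF in 7 of 14 (without CX-5461 replicate 2 or 3 or vehicle replicate 1 or 3 of Mv4;11, or treated replicate 2 or 3 or vehicle replicate 3 of KG-1).

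No member passed between lines at 3 h of PMR-116 (6.94% of all genes), 3 h of CX-5461 (3.07%) or 12 h of PMR-116 (25.4%) in edgeR, and 2, 3 and 0 had an unadjusted p under 0.05, with 0 called in DESeq2. At 3 h of PMR-116 the difference was -0.43 ± 0.18 for ICAM1 and -0.27 ± 0.12 for RELA (adjusted p = 0.157 and 0.187). Both passed without treated replicate 1 of Mv4;11 (adjusted p = 0.0414 for ICAM1 and 0.0248 for RELA), ICAM1 also without vehicle replicate 3 of Mv4;11 (0.0466) and RELA without vehicle replicate 1 of KG-1 (0.0334). With the replicate block in edgeR ICAM1 (-0.43, adjusted p = 0.0205) and RELA (-0.28, adjusted p = 0.0406) passed there as well. At 12 h of PMR-116 TNFAIP3 had a difference of -0.44 ± 0.23 (adjusted p = 0.178), which passed without treated replicate 2 of KG-1 (-0.65, adjusted p = 0.0324). RELB, called only in Mv4;11, did not pass the test between lines at 12 h of CX-5461 (0.09 ± 0.17, adjusted p = 0.848).

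**Figure D4:**
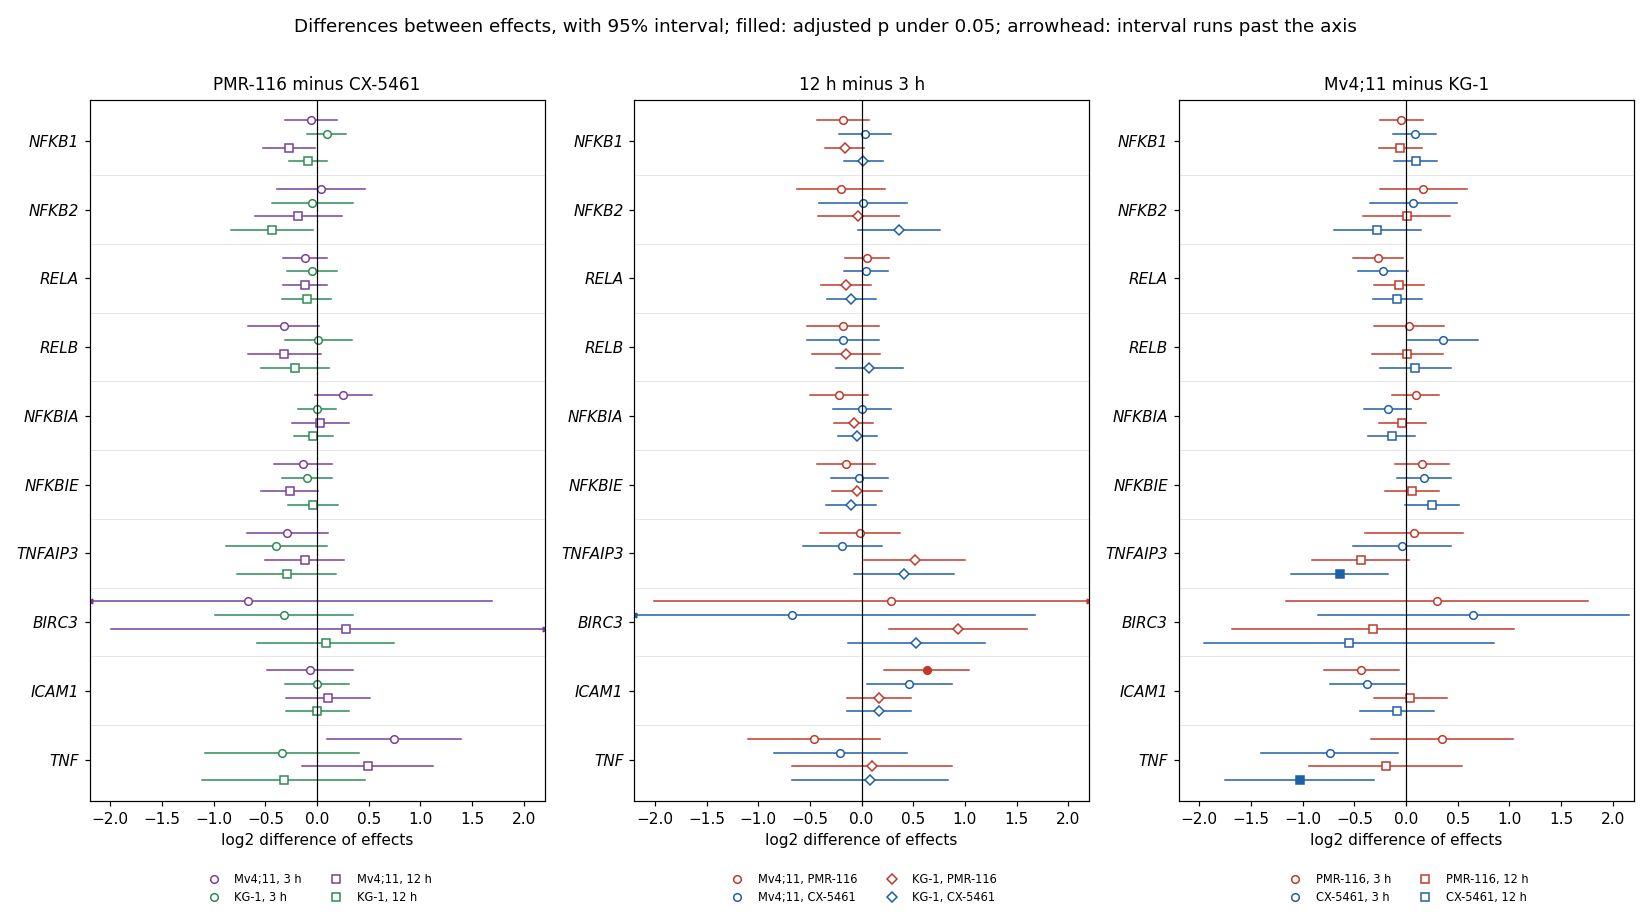
Differences between effects on the log2 scale (x axis) for each gene (rows), as PMR-116 minus CX-5461 (left), 12 h minus 3 h (middle) and Mv4;11 minus KG-1 (right). Lines are 95% intervals and filled symbols are calls at an adjusted p under 0.05. The 3 filled symbols are ICAM1 between times and TNFAIP3 and TNF between lines.

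The wider pathway was read from a list of 31 NF-kB signalling genes (30 tested in Mv4;11, 31 in KG-1) and a list of 40 other NF-kB target genes (28 and 26 tested). Neither holds any of the 10 members. Both lists were chosen with earlier results of these data known, so their counts and medians describe these libraries and are not independent support. In Mv4;11, 11 signalling genes rose and 3 fell at 3 h of PMR-116, 14 of 30 where 24.1% of all genes were called. At 3 h of CX-5461, 4 rose and 1 fell, 5 of 30 against 11.7%. At 12 h, 11 rose and 5 fell with PMR-116, 16 of 30 against 43.2%, and 10 rose and 2 fell with CX-5461, 12 of 30 against 31.4%. Medians lay between 0.01 and 0.14. The fit of 2 groups alone gave 6 higher at 3 h of PMR-116, and 5 were lower there without treated replicate 1. At 12 h of CX-5461, 6 were higher without treated replicate 1 or vehicle replicate 2, and between 1 and 5 were lower (1 without vehicle replicate 2 or treated replicate 3, 5 without vehicle replicate 3). With library totals the 12 h counts were 20 and 2 with PMR-116 and 14 and 1 with CX-5461. BCL3, a nuclear IkB protein that acts with p50 and p52 homodimers, rose to 19.4 ± 3.09 CPM after 12 h of PMR-116, against 5.77 ± 0.515 CPM with vehicle (mean ± SD, n = 3 each), a change of 1.75 ± 0.13, adjusted p = 8.51e-11. With CX-5461 at 12 h BCL3 rose by 1.43 ± 0.13, adjusted p = 1.02e-08. CYLD, a deubiquitinase that restrains the pathway, rose by 0.93 ± 0.07 and 0.64 ± 0.07 at 12 h of PMR-116 and CX-5461. The adaptor TRAF3, which keeps the non-canonical kinase MAP3K14 in check, fell after 12 h of PMR-116 (-0.89 ± 0.10), as did TRAF2 (-0.79 ± 0.08), and TRAF2 fell with CX-5461 at 12 h (-0.48 ± 0.08). At 3 h of PMR-116 RIPK1, a kinase of TNF receptor complexes, rose (0.58 ± 0.08) and the receptor TNFRSF1B fell (-0.65 ± 0.09), the receptor also with CX-5461 (-0.40 ± 0.09).

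Of the 28 other NF-kB target genes tested in Mv4;11, at 12 h 18 rose and 2 fell with PMR-116, with a median of 0.86, and 14 rose and 1 fell with CX-5461, with a median of 0.66. The median of all genes was 0.01 and 0.04, and 43.2% and 31.4% of all genes were called. Without the vehicle library that stood apart, 15 rose and 2 fell with PMR-116. The filter on low counts looks at all groups together, so a gene near the floor with vehicle can pass through treated libraries and then hardly fall. Such genes can lift the count of rises and the medians, and how far they did was not tested. With no filter 18 rose and 2 fell with PMR-116, and 15 rose and 1 fell with CX-5461. That fit also keeps the genes near the floor, so it cannot show their part. CD86, a costimulatory receptor of antigen-presenting cells, rose to 14.3 ± 1.88 CPM after 12 h of PMR-116, against 1.16 ± 0.466 CPM with vehicle (3.61 ± 0.30, adjusted p = 7.67e-10), and by 2.06 ± 0.30 with CX-5461. The chemokines CCL3 (3.06 ± 0.32) and CXCL8 (2.42 ± 0.37) rose with PMR-116, from vehicle means of 0.369 and 4.70 CPM. The chemokine receptor CCR7 (1.74 ± 0.32) and the cytokine subunit EBI3 (2.56 ± 0.48) rose with CX-5461, from 0.458 and 0.253 CPM. CCL3, CCR7 and EBI3 thus stood near the floor with vehicle. SOD2, the mitochondrial superoxide dismutase and a classical NF-kB target, fell with both compounds (-0.76 ± 0.08 for PMR-116 and -0.52 ± 0.07 for CX-5461), and CD83 fell with PMR-116 (-0.66 ± 0.13).

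Markers of several cell types were called in the same comparisons, where 43.2% (PMR-116) and 31.4% (CX-5461) of all genes were called at 12 h. Lists of so few genes cannot show whether markers were called more often than other genes. Of 5 lymphocyte markers 2 were tested in Mv4;11, and 0 rose and 0 fell at 12 h of either compound. Of 7 monocyte and macrophage markers 6 were tested in Mv4;11, where 3 rose and 1 fell at 12 h of PMR-116 and 3 rose and 0 fell at 12 h of CX-5461. Their summed level ran from 190.4 to 229 CPM with PMR-116, against 149 to 164 CPM with its vehicle, and was 225 CPM or more with CX-5461, against 144 to 181 CPM with its vehicle. The defining markers CD14 and CD163 stayed at or below 0.637 and 0.216 CPM. Of 5 erythroid and megakaryocyte markers the 1 tested rose with both compounds at 12 h, and their sum was 12.8 to 14.5 CPM with PMR-116, against 4.45 to 5.89 CPM with its vehicle, and 15.2 to 18.2 CPM with CX-5461, against 4.80 to 6.04 CPM with its vehicle. The 1 tested was ITGA2B, at 2.28 to 17.9 CPM over the Mv4;11 libraries, and it made up most of that sum. HBB and PF4 were at 0 in every Mv4;11 library. Of 6 fibroblast, endothelial and epithelial markers 3 were tested and 1 rose with each compound. Their sum was 108 to 121 CPM with PMR-116, against 55.3 to 70.3 CPM with its vehicle. With CX-5461 it was 94.4 to 109 CPM, against 59.7 to 75.6 CPM with its vehicle. Most of that sum was PECAM1, at 50.4 to 117 CPM over the Mv4;11 libraries. KRT18 stayed at or below 5.55 CPM, COL1A1 at or below 0.925 CPM and EPCAM at or below 0.108 CPM. The shift in the sum was thus largely that of PECAM1. Of 2 genes listed for immature cells, the 1 tested in Mv4;11 was CD38, which rose with each compound, while CD34 stayed at or below 1.19 CPM. CD38 had a median of 27.7 CPM in Mv4;11 and 9.91 CPM in KG-1, where CD34 was high. Its rise is thus not read as a shift to immature cells. The sum of 5 myeloid markers was 1159 to 1423 CPM with PMR-116, against 1489 to 1651 CPM with its vehicle, with 1 higher and 1 lower by the test. With CX-5461 it was 1533 to 1804 CPM, which overlapped with the 1574 to 1705 CPM of its vehicle, and 2 were higher and 0 lower. Most of that sum was LYZ, at 667 to 1484 CPM over the Mv4;11 libraries. The part of such shifts in the rise of the target genes was not tested.

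At 3 h in Mv4;11, 6 target genes rose and 3 fell with PMR-116, 9 of 28 where 24.1% of all genes were called, and 5 rose and 0 fell with CX-5461, 5 of 28 against 11.7%. The 5 became 3 without treated replicate 2 or vehicle replicate 3, or with 2 groups alone. With PMR-116 CCL3 rose (1.65 ± 0.31) from a vehicle mean of 0.476 CPM, near the floor. CFLAR, an inhibitor of caspase-8 (-0.36 ± 0.06), and CD83 (-0.56 ± 0.13) fell with PMR-116. CCR7 rose to 2.50 ± 0.742 CPM with CX-5461, against 0.439 ± 0.0706 CPM with vehicle (2.50 ± 0.32, adjusted p = 5.36e-06). In KG-1, 3 target genes rose and 3 fell at 3 h of PMR-116 (6 of 26, against 7.33% of all genes) and 2 rose and 1 fell at 3 h of CX-5461 (3 of 26, against 3.44%). At 12 h, 2 rose and 1 fell with PMR-116 (3 of 26, against 9.46%) and 1 rose and 1 fell with CX-5461 (2 of 26, against 2.54%), and medians lay between -0.01 and 0.19. Leaving out 1 library took the 6 at 3 h of PMR-116 to 1 higher and 1 lower without treated replicate 1 or 2 or without vehicle replicate 3, and to 1 higher without vehicle replicate 2. Most of the other counts of this list in KG-1, of 1 or 2 genes, also lost 1 gene without single libraries. CFLAR was lower in all 4, with -0.36 ± 0.05 at 3 h of PMR-116 and -0.18 ± 0.05 at 12 h of CX-5461, where the call ended in 8 of 13 alternatives. TNFAIP2 rose at 3 h of both compounds (0.38 ± 0.07 for PMR-116 and 0.34 ± 0.07 for CX-5461), and the stress-response gene IER3 rose at 12 h of both (0.65 ± 0.15 for PMR-116 and 0.66 ± 0.15 for CX-5461), calls that ended in the fit of 2 groups alone and, for CX-5461, without treated replicate 2. Of the signalling genes, CYLD and RIPK1 rose and TRAF2 fell at 3 h of PMR-116, CYLD and SHARPIN rose at 12 h of PMR-116 (SHARPIN lost its call in 9 of 13 alternatives), and 0 of 31 passed in edgeR with CX-5461 at either time, with 6 (3 h) and 3 (12 h) at an unadjusted p under 0.05 and 4 (3 h) and 1 (12 h) called in DESeq2.

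**Figure D5:**
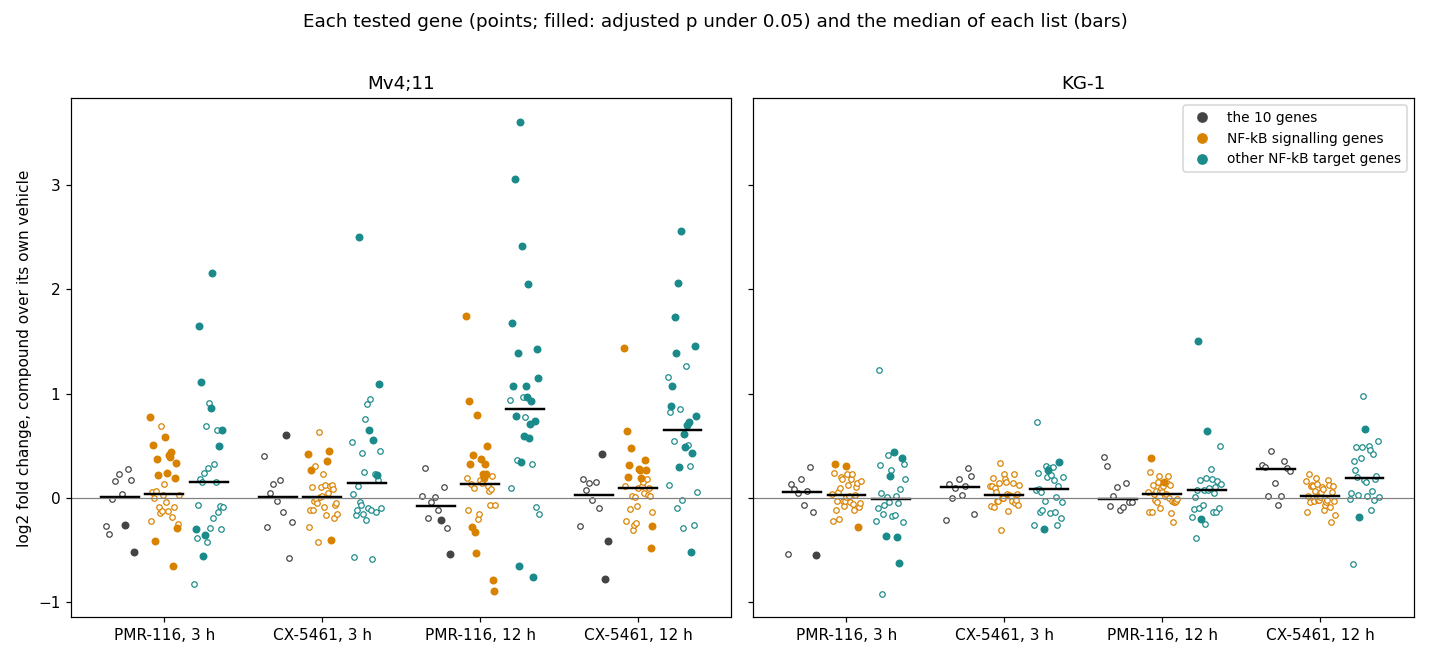
Log2 fold change of compound over its own vehicle (y axis) for each tested gene of 3 lists in the 4 comparisons (x axis) of Mv4;11 (left) and KG-1 (right). Filled points passed the test and bars are list medians. At 12 h in Mv4;11 the other target genes have medians of 0.86 (PMR-116) and 0.66 (CX-5461), while the 10 genes have -0.08 and 0.03.

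As a description, the profile of NFKBIA over the 8 comparisons was set beside those of 9460 genes tested in both lines with a mean of at least 5 CPM in each. The 5 genes most like it were ING1, LRRC8A and DPAGT1 (Pearson's r = 0.96 each) and ING2 and SPAG5 (0.95 each), over 8 log2 fold changes. These 8 values come from 2 lines with 1 fit each, and the changes of NFKBIA that they follow were small, with none called. The r values are the highest of 9460 and are not read as shared regulation. Members at that level in both lines had an r with NFKBIA between -0.40 (NFKBIE) and 0.34 (RELA).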

How the data were processed

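Polyadenylated RNA of 56 libraries (24 of Mv4;11, 32 of KG-1) was turned into libraries with a kit that keeps strand (Illumina Stranded mRNA Prep), per the labels' protocols. The authors deposited estimated counts per gene symbol, 1 table per line. Salmon 1.5.2, DESeq2 and the build GRCh38.p13 are named in the submitters' processing notes. What each did, which annotation was used and whether strand was used in counting is not given in the sources used here. Another 24 columns of per-sample values matched no sample and were not used.

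After rounding to whole numbers, the estimated counts were tested with edgeR 4.0.16 (R 4.3.3) by its quasi-likelihood test, after filterByExpr (minimum count 10, minimum total 15) and TMM scaling. Each line was fitted once with its 8 groups, and line differences came from a joint fit of 16 groups. Benjamini-Hochberg adjustment ran over all genes tested, with a call at an adjusted p under 0.05. CPM use TMM-adjusted library sizes. Intervals are 95% intervals of the model, and ± after a log2 fold change is its standard error. The scripts were tested on simulated data. Alternatives were library totals in place of TMM, no filter, the replicate number as a block, DESeq2 1.42.0, a fit of 2 groups only, and leaving out each library. The 10 genes and the gene lists were chosen with earlier results of these data known. Pathway genes were named by a fixed rule on size of change among called genes. Promoter sequences are RefSeq's (GRCh38.p14), and overlaps between genes were read from GENCODE v29.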

Additional observations from a re-analysis of the deposited data

Results flagged for a closer look

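In KG-1, 80 groups of 4 libraries (10 genes in 8 groups) were checked for a library whose gap to its neighbour exceeded Dixon's 95% critical share of the group's range, and 4 had one, where chance gives about 1 in 20. RELA reached 106 CPM in 1 PMR-116 vehicle library at 3 h and 89.5 CPM in 1 at 12 h, both the highest of their group. TNFAIP3 was lowest, at 13.6 CPM, in 1 PMR-116 vehicle library at 12 h. ICAM1 was highest, at 86.6 CPM, in 1 PMR-116 library at 3 h.

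Effects differed by a test of the difference itself in 3 cases. The PMR-116 effect on ICAM1 in Mv4;11 was higher by 0.63 at 12 h than at 3 h (edgeR's quasi-likelihood test, adjusted p = 0.0194). It was 1 of 10 members, where 27.6% of all genes were called. At 12 h of CX-5461 the effect in Mv4;11 minus that in KG-1 was -0.64 for TNFAIP3 and -1.03 for TNF (adjusted p = 0.0482 and 0.0393). These were 2 of 10 members, where 16.2% of all genes were called. All 3 calls ended in some of the fits without 1 library, and those of TNFAIP3 and TNF also with library totals.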

How the results depend on the processing

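Over 3120 values of the 10 genes under the alternatives, 2775 kept both their sign and their side of the threshold. A call was lost by 40 and gained by 46. The sign changed in 259 with no call in either fit, and in 0 with a call in either. RELB at 3 h of CX-5461, TNFAIP3 at 12 h of PMR-116 and TNF at 12 h of CX-5461, all in Mv4;11, kept their calls in all 11 alternatives. BIRC3 in Mv4;11 and TNF in KG-1 rest on few counts. Causes of the changes below were not tested.

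With library totals, the median of all genes at 12 h in Mv4;11 moved to 0.18 with PMR-116 and 0.12 with CX-5461, from 0.01 and 0.04 with TMM. Genes called higher and lower were then 6275 and 3203 with PMR-116 (4241 and 4618 with TMM), 4086 and 2591 with CX-5461 (3042 and 3388), 2877 and 2251 at 3 h of PMR-116 (2253 and 2686), and, in KG-1, 552 and 885 at 3 h of PMR-116 (673 and 691) and 308 and 419 at 3 h of CX-5461 (345 and 295). Members called became 4 at 3 h of PMR-116 in Mv4;11 and 1 at 12 h of PMR-116 in KG-1. In KG-1, the compound difference at 12 h gave 26 genes and the CX-5461 time difference 83.

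With no filter, members called were 4 (PMR-116, 3 h) and 2 (CX-5461, 3 h) in Mv4;11. Genes called were 714 for the compound difference at 3 h and 126 and 174 between vehicles at 3 h and 12 h in Mv4;11. In KG-1 they were 371 (CX-5461, 3 h), 1152 (PMR-116, 12 h), 268 (CX-5461, 12 h), 3 (compound difference, 12 h), and 171 and 23 between times of PMR-116 and CX-5461.

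The replicate numbers were checked as pairs. Same-numbered libraries correlated at -0.01 to 0.11 over 12 pairs in Mv4;11 and 0.02 to 0.24 over 16 pairs in KG-1. In Mv4;11 1 pair lay over 0.1, and 10 treated libraries correlated best with the vehicle library of their own number. In KG-1 9 pairs lay over 0.1, and 13 treated libraries correlated best with their own number. The numbers thus carried some pairing, which the main fits left out and the replicate block takes in. With the replicate block, members called were 2 at 3 h of CX-5461 in Mv4;11 (TNF gained, adjusted p = 0.00679; ICAM1 gained at 3 h of PMR-116, 0.0353), and 1 gene was called between vehicles at 3 h. In KG-1 the block gave 2599, 1733, 3198 and 1313 genes and 3, 1, 1 and 3 members (PMR-116 and CX-5461 at 3 h, then at 12 h), 18 and 179 genes for compound differences at 3 h and 12 h, 1235 and 402 for time differences of PMR-116 and CX-5461, and 1220 for the line difference at 3 h of CX-5461. The members gained in KG-1 by the block in edgeR were RELB (adjusted p = 0.00709) and BIRC3 (0.0151) at 3 h of PMR-116, RELB (0.0138) at 3 h of CX-5461, ICAM1 (0.000586) at 12 h of PMR-116, and NFKB2 (0.000187), RELB (0.00249) and ICAM1 (0.00164) at 12 h of CX-5461. Differences gained were NFKB2 between compounds at 12 h (0.0353) and BIRC3 between times of PMR-116 (0.00637) in KG-1, and RELA (0.0406) and ICAM1 (0.0205) between lines at 3 h of PMR-116.

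With DESeq2, members called were 2 at 3 h of CX-5461 in Mv4;11 and 2, 1, 1 and 2 in KG-1. Genes called were 608 and 1581 for compound differences and 1 between vehicles at 3 h in Mv4;11. In KG-1 they were 1105 and 803 for CX-5461 at 3 h and 12 h, 16 and 91 for compound differences, 631 and 195 for time differences, and 2 and 1 between vehicles. The line difference at 3 h of CX-5461 gave 1154. Fits of 2 groups only gave 0 members at 3 h of PMR-116 in KG-1, and 332 (CX-5461, 3 h), 911 (PMR-116, 12 h) and 71 (CX-5461, 12 h) genes.

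Leaving out 1 library gave, in Mv4;11, 1573 to 1948 genes and 1 to 2 members at 3 h of CX-5461, 1 to 3 members at 3 h of PMR-116 and at 12 h of either compound, 143 to 458 genes for the compound difference at 3 h and 0 to 17 between vehicles at 12 h. In KG-1 it gave 901 to 1279 genes and 0 to 1 members at 3 h of PMR-116, 362 to 582 genes and 0 to 1 members at 3 h of CX-5461, 0 to 1 members at 12 h of PMR-116, 288 to 401 genes at 12 h of CX-5461, 0 to 13 for the compound difference at 12 h and 22 to 50 for the CX-5461 time difference.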
